A study of Homo sapiens with 3 samples.

Results

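Of the 866 reproducible RBM17 binding peaks in K562 cells, 281 were assigned first to an exon of an mRNA: 180 to coding sequence (CDS), 70 to the 5’-UTR and 31 to the 3’-UTR. They were chosen by joining each deposited peak, on chromosome, start, end and strand, to the regions the study lists for it and keeping peaks whose first listed region was one of these 3. They made up 32.4% of all peaks (exact 95% interval 29.3 to 35.7) and lay in 169 of the 430 genes with a peak. K562 is a long-established line of chronic myelogenous leukemia cells, and all libraries came from these cells without any treatment or genetic change. RBM17 was measured by eCLIP in 2 replicates with a mixture of 2 antibodies, and 1 size-matched input, taken before the washes and carrying no antibody selection of its own, served as background for both. In eCLIP, ultraviolet light fixes a protein to the RNA it touches, and fragments that come down with the protein are counted against the input.

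RBM17, also called SPF45, is a splicing factor with a G-patch and a U2AF homology motif. It associates with the U2 snRNP, which recognizes the branch point and the 3’ splice site of introns. An mRNA exon is made of protein-coding sequence or of untranslated sequence before the start codon or after the stop codon. Exons are also the places where many splicing enhancers and silencers lie, and an exon of one transcript can be an intron of another. A peak called exonic can therefore come from spliced mRNA, from unspliced pre-mRNA or from an alternative exon, and eCLIP peaks alone do not tell these apart.

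The erythroid identity of the cells was visible in the replicate 2 clusters. TFR2 held 168 reads, HBG1 139, GATA1 69 and KLF1 19, whereas CD3E, MS4A1 and ALB had 0 clusters. HBG2 held 1553 reads, but these were spread over 128 clusters, against 3 for HBG1 and 14 for TFR2. The HBG2 number may therefore not measure that globin gene alone. Replicate 1 had 137095 clusters and replicate 2 had 119066, with 1336569 reads counted once per interval and a median of 5 reads per cluster. The clusters at the exonic peaks held 8186 of these reads. All 281 exonic peaks overlapped a cluster of both replicates on the same strand, as the making of the list requires. Replicate 1 gives a log2 fold over the input without reads, replicate 2 gives reads without a fold, and the list gives 1 joint log2 fold. The replicates therefore have no common scale, no fold has a replicate error, and no test was made. Intervals below are exact 95% intervals over peaks or genes and cover counting error only, and peaks of the same gene are not independent.

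The 5’-UTR was the most densely covered exonic class for its length. In 6331 protein-coding genes with clusters in both replicates, the canonical transcripts held 12.7 Mb of CDS, 1.18 Mb of 5’-UTR and 12.4 Mb of 3’-UTR. The 5’-UTR was thus 4.47% of the annotated mRNA but held 24.9% of the exonic peaks (20.0 to 30.4), while the 3’-UTR was 47.3% of the mRNA and held 11.0% of the peaks (7.62 to 15.3). Peaks numbered 59.5 per Mb in the 5’-UTR (exact Poisson interval 46.4 to 75.2), 14.2 per Mb in CDS (12.2 to 16.5) and 2.49 per Mb in the 3’-UTR (1.69 to 3.54), and the 3 intervals did not overlap. Counting each gene once kept the order, with 44.2 genes per Mb in the 5’-UTR, 8.69 in CDS and 1.53 in the 3’-UTR. The lengths are those of canonical transcripts, whereas a peak may lie in the UTR of any transcript. AHSA2, 1 of the 52 genes with a 5’-UTR peak, had no such length, but its peak was counted. In the 5’-UTR class, 9 of 69 peaks were longer than the whole canonical 5’-UTR of their gene, and in 12 of 51 genes the peaks of the class summed to more bases than it has.

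**Figure D1:**
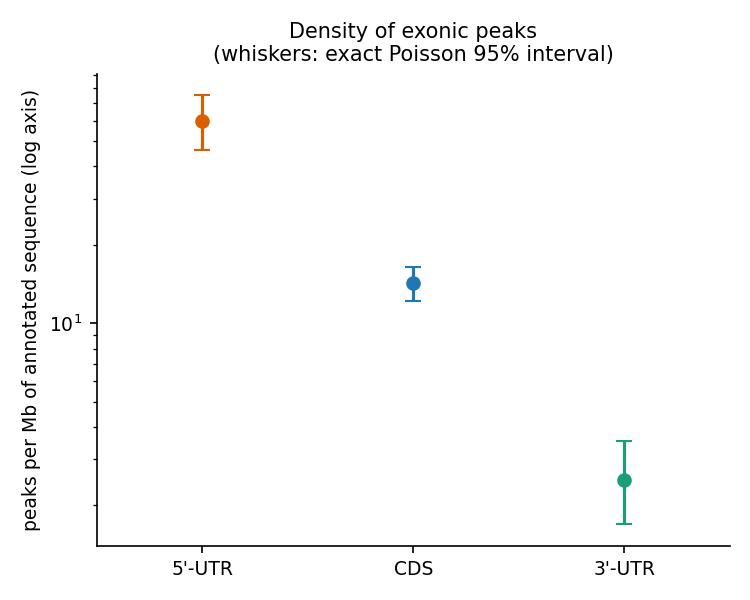
Reproducible RBM17 peaks per Mb of canonical CDS, 5’-UTR and 3’-UTR sequence of 6331 protein-coding genes, on a log axis. Points are counts divided by length and whiskers are exact Poisson 95% intervals; the 5’-UTR lies at 59.5, CDS at 14.2 and the 3’-UTR at 2.49, with no overlap between whiskers.

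The 3 classes overlapped in the joint fold of both replicates, the one fold over the input that the list gives. The median log2 fold was 3.68 in CDS (interval of the median 3.53 to 3.76), 3.68 in the 5’-UTR (3.43 to 4.05) and 3.65 in the 3’-UTR (3.53 to 3.98). Peaks first assigned to proximal introns had a median of 3.89 (3.82 to 4.09), an interval that lay above that of CDS and overlapped those of both UTR classes. Peaks first assigned to a 5’ splice site (5’-SS) had a median of 3.87 (3.77 to 4.07). A log2 fold of at least 4 was reached by 57 of 180 CDS peaks (31.7%, 24.9 to 39.0), 29 of 70 5’-UTR peaks (41.4%, 29.8 to 53.8) and 9 of 31 3’-UTR peaks (29.0%, 14.2 to 48.0). Over all 866 peaks the share was 40.9%, inside the intervals of both UTR classes and above that of CDS.

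In replicate 1 alone, the median of 5’-UTR peaks stood higher than that of CDS peaks. The median of its log2 fold in the overlapping cluster was 3.61 in CDS (3.51 to 3.73) and 4.07 in the 5’-UTR (3.84 to 4.41), and these intervals did not overlap. The 3’-UTR median of 3.85 (3.55 to 4.00) overlapped both. With 1 peak per gene and class, the CDS median of 3.80 (3.65 to 4.00) and the 5’-UTR median of 4.12 (3.81 to 4.58) had overlapping intervals. They also overlapped at a −log10 p of at least 5, with 3.65 in CDS (3.51 to 3.79) and 4.08 in the 5’-UTR (3.73 to 4.77). Proximal intron peaks had a replicate 1 median of 4.16 (4.02 to 4.33) and 5’-SS peaks one of 4.04 (3.89 to 4.23). The interval of the 5’-UTR median overlapped those of the intron and splice site medians, whereas that of CDS lay below them. The peaks themselves overlapped, with quartiles of 3.31 and 4.15 in CDS, 3.65 and 4.79 in proximal introns and 3.58 and 4.73 at the 5’-SS. A replicate 1 log2 fold of at least 4 was found at 52.9% of 5’-UTR peaks (40.6 to 64.9), 31.1% of CDS peaks (24.4 to 38.4) and 57.4% of proximal intron peaks (51.2 to 63.5).

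The 5’-UTR and CDS also stood apart in the median difference between replicate 1 and both, where the same interval could be compared. A replicate 1 cluster with exactly the interval of the peak existed for 163 of the 281. Its fold was above the fold over both replicates at 41 of 44 5’-UTR peaks (93.2%, 81.3 to 98.6), 76 of 103 CDS peaks (73.8%, 64.2 to 82.0) and 10 of 16 3’-UTR peaks (62.5%, 35.4 to 84.8). The intervals of these shares overlapped. The median of replicate 1 minus both, on the log2 scale, was 0.53 in the 5’-UTR (0.41 to 0.68), 0.22 in CDS (0.11 to 0.26) and 0.24 in the 3’-UTR (−0.08 to 0.42). Proximal introns stood at 0.37 (0.31 to 0.46) and 5’-SS peaks at 0.46 (0.32 to 0.52). At none of the 163 intervals was the −log10 p over both above that of replicate 1, and at 31 the values were equal. The fold of replicate 2 is not given, so its part in this difference was not tested.

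**Figure D2:**
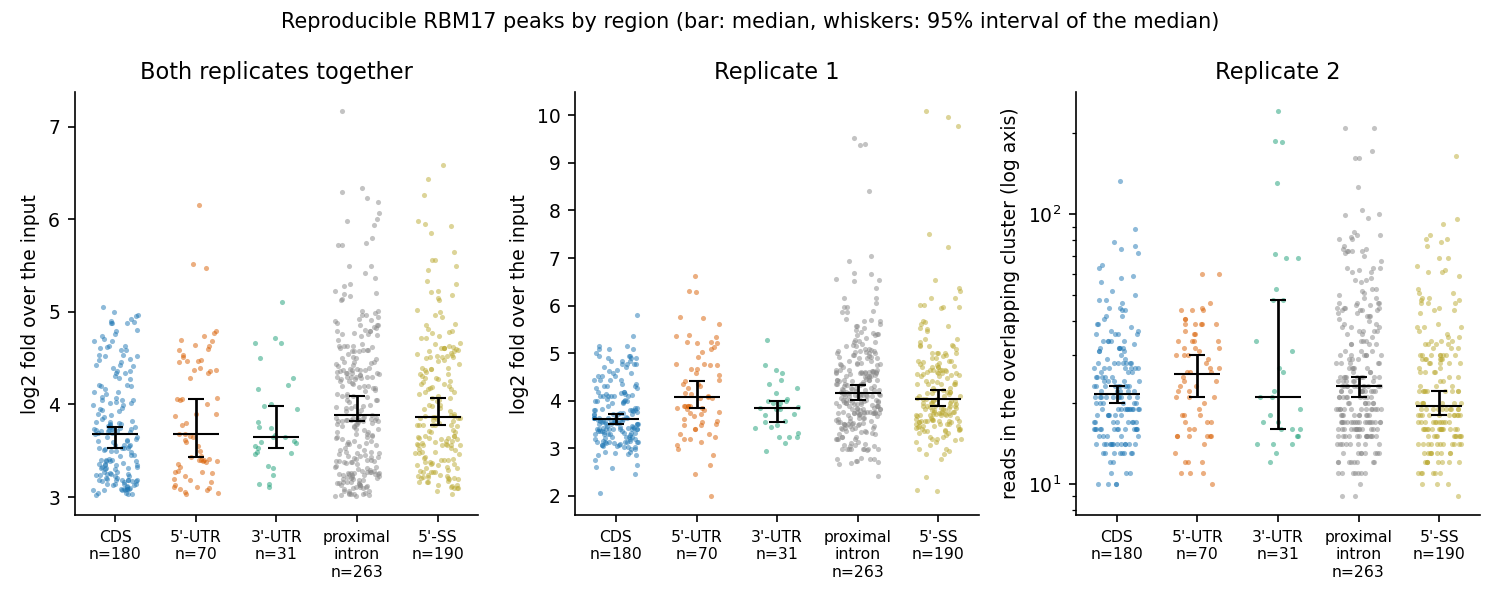
Each point is a reproducible peak, by first listed region: the joint log2 fold of both replicates over the input (left), the replicate 1 log2 fold (middle) and replicate 2 reads in the overlapping cluster on a log axis (right). Bars are medians with 95% intervals; the exonic medians lie between 3.65 and 3.68 on the left, while in the middle CDS (3.61) lies below the 5’-UTR (4.07) and proximal introns (4.16).

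The replicate 2 reads overlapped between the exonic classes. The median cluster held 21.5 reads at CDS peaks (20 to 23), 25.5 at 5’-UTR peaks (21 to 30) and 21 at 3’-UTR peaks (16 to 48). Without LENG8, which supplied 7 of the 31 3’-UTR peaks, the 3’-UTR median was 17.5 reads (15 to 26), and when the −log10 p had to reach 5 it was 41 (22 to 71). In the replicate 1 clusters, a log2 fold and a −log10 p of at least 3 were reached at 166 of 180 CDS peaks (92.2%), 65 of 70 5’-UTR peaks (92.9%) and 30 of 31 3’-UTR peaks (96.8%). The same held at 91.9% of all reproducible peaks and in 5.35% of all replicate 1 clusters, so the exonic shares were those of the list as a whole, which was made with this replicate. Across the 281 peaks, the replicate 1 fold and the replicate 2 reads had a Spearman rho of −0.24 and a Pearson r of −0.17, and both come from the same sites and share the abundance of the transcript. The replicate 1 fold and the fold over both, which share replicate 1, had a rho of 0.75.

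**Figure D3:**
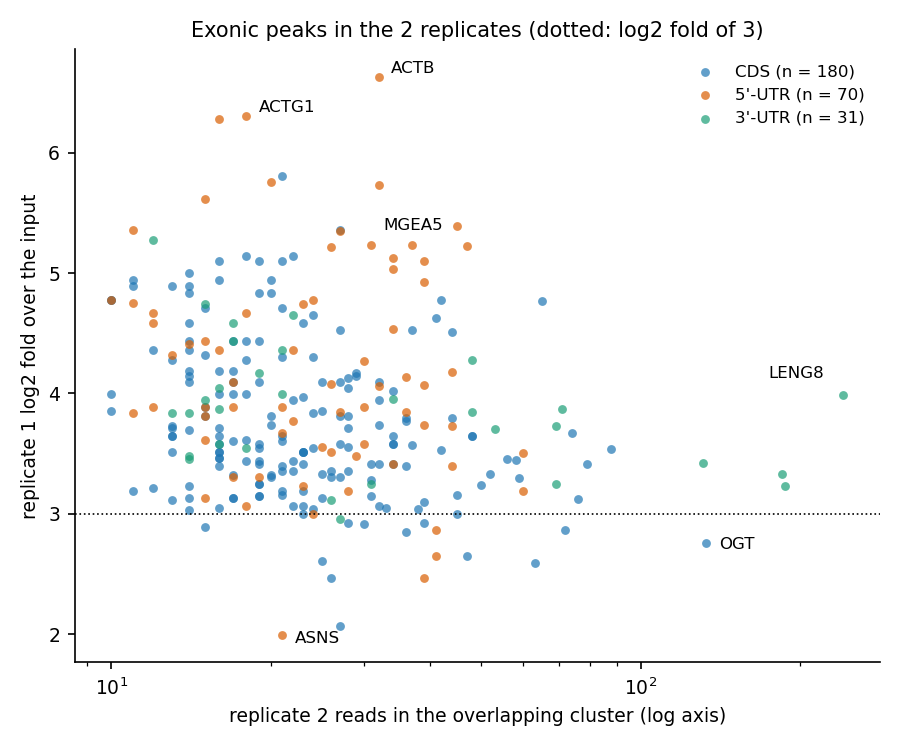
Replicate 1 log2 fold over the input against replicate 2 reads in the overlapping cluster (log axis) for the 281 exonic peaks, colored by class. The ACTB and ACTG1 5’-UTR peaks lie highest in replicate 1 at 6.63 and 6.31, the LENG8 3’-UTR peak lies farthest right at 241 reads, and the dotted line marks a log2 fold of 3.

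Position along the gene followed the class names with exceptions in each UTR. Each peak was placed on the span from the first to the last replicate 2 cluster of its gene, from 0 at the 5’ end to 1 at the 3’ end. The median position was 0.016 for 5’-UTR peaks (0.0050 to 0.068), 0.51 for CDS peaks (0.46 to 0.59) and 0.87 for 3’-UTR peaks (0.82 to 0.95). In the first 10% of the span lay 48 of 70 5’-UTR peaks (68.6%), 27 of 180 CDS peaks (15.0%) and 0 of 31 3’-UTR peaks (exact upper limit 11.2%). In the last 10% lay 15 3’-UTR peaks (48.4%), 14 CDS peaks (7.78%) and 2 5’-UTR peaks (2.86%). Those 2 were in TYK2, a cytokine receptor kinase, at 0.94, and in LIME1, at 0.94, and both names were picked for this position. On the other side, the 3’-UTR peaks farthest from the 3’ end, also picked for their position, were in CREBZF at 0.29, RBM5 at 0.31, SAT1 at 0.38, the histone gene H3F3A at 0.44, the U2 snRNP subunit gene SF3B1 at 0.44, and CCNL2 and AMDHD2 at 0.56. Clusters of the same genes continued downstream of these peaks.

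**Figure D4:**
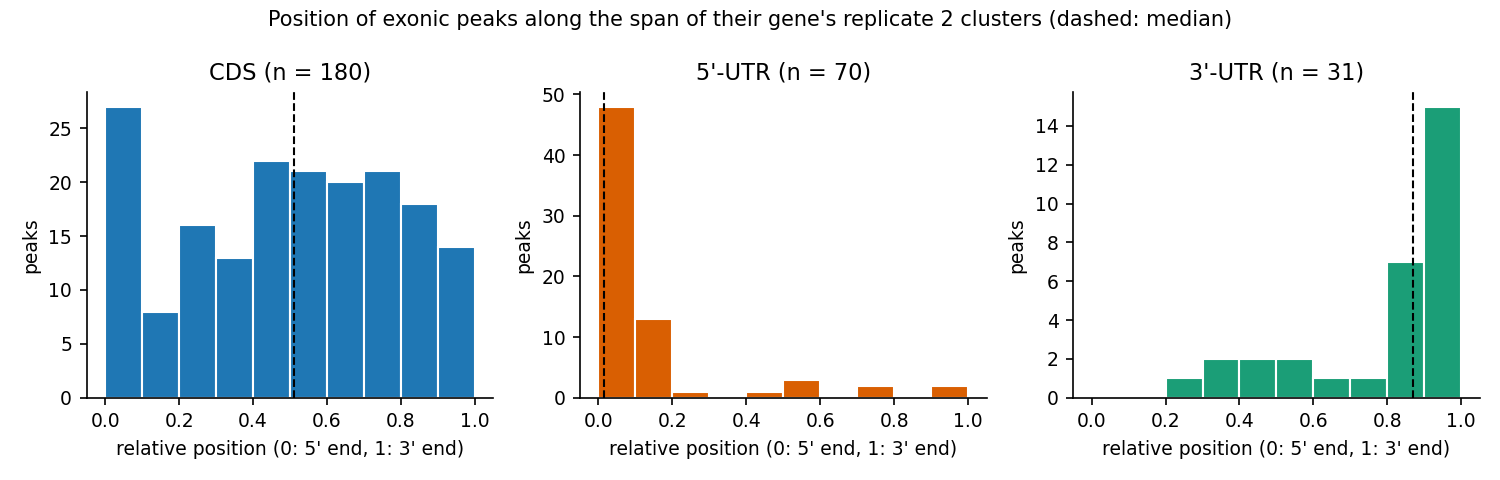
Number of exonic peaks in each 10% of the span of their gene's replicate 2 clusters, from the 5’ end (0) to the 3’ end (1), for CDS, 5’-UTR and 3’-UTR peaks, with the median dashed. The first 10% holds 48 of 70 5’-UTR peaks, the last 10% holds 15 of 31 3’-UTR peaks, and CDS peaks spread over the whole span with 27 in the first 10%.

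Genes with a 5’-UTR peak more often had a 5’-UTR split over several exons than the background. The canonical 5’-UTR was interrupted by an intron in 30 of 51 genes with a 5’-UTR peak (58.8%, 44.2 to 72.4), against 36.4% of the 6331 genes. Genes with a CDS peak (36.4%, 27.4 to 46.1) and with a 5’-SS peak (40.8%, 32.9 to 49.0) had intervals that overlapped it. That of genes with a proximal intron peak did not (34.1%, 27.0 to 41.9). The median canonical 5’-UTR had 180 bases in the 5’-UTR genes (117 to 256) and 129 in the background. An alternative 5’-UTR exon lay within a canonical intron in 74.5% of the 5’-UTR genes (60.4 to 85.7) and in 51.8% of the background, but genes with proximal intron peaks (61.1%, 53.2 to 68.5) and 5’-SS peaks (61.8%, 53.6 to 69.6) overlapped the 5’-UTR genes. For genes with a 3’-UTR peak, an alternative 3’-UTR lay within a canonical intron in 15 of 19 (78.9%, 54.4 to 93.9), against 53.9% of the background and 65.5% of genes with a CDS peak (55.8 to 74.3), whose interval overlapped. Genes with a CDS peak had a median of 20 exons (18 to 22) and 2752.5 bases of coding sequence (2334 to 3213), against 11 exons and 1500 bases in the background. Whether peaks were more frequent per coding base in these longer genes was not tested.

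The CDS peaks with the highest fold for both replicates were in TRPM7, GSE1, PIEZO1, SUPT5H and TONSL. TRPM7 encodes an ion channel fused to a kinase, and its peak at chr15:50867155-50867217 (hg19, minus strand) had a log2 fold of 5.06 over both, 5.14 in replicate 1 and 22 reads in replicate 2. The GSE1 peak at chr16:85699642-85699677 (plus strand) had 5.0 over both, 4.51 in replicate 1 and 44 reads. PIEZO1 encodes a mechanically gated cation channel, and its peak at chr16:88789404-88789416 (minus strand) had 4.97, 4.65 and 24 reads. In these 3 genes a high fold came with read numbers at or above the class median of 21.5. SUPT5H encodes a subunit of the elongation factor DSIF, with 4.96, 5.10 and 19 reads. TONSL, which acts in repair of stalled replication forks, had 4.92, 4.94 and 20 reads, and its peak reached 21 bases into the 3’ splice site region of the intron.

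Some CDS peaks reached across the 3’ splice site, the site that the U2 snRNP and its partners recognize. Of the 180 CDS peaks, 133 listed only CDS, 36 listed CDS and a 3’ splice site and 11 listed CDS and 5’-UTR. In the 36, the summit of the replicate 2 cluster lay on the exon side in 32 (88.9%, 73.9 to 96.9), at a median of 11.5 bases into the exon. Most bases lay in the exon in 28 of the 36, so the side of the summit is not independent of the extent of the peak. In GIGYF1 and DDX39A the summit lay outside the peak. Peaks that listed a 3’ splice site first were not measured in this way. The 4 with a summit on the intron side were in AP1G2, WNK4, SLC4A2 and CDK5RAP3, at −58, −31, −7 and −6 bases relative to the start of the exon, and they were picked for that. Peaks across the 3’ splice site had a median log2 fold of 3.73 over both and 3.90 in replicate 1, and peaks that listed only CDS had 3.61 and 3.56. In 8 of the 36 most bases lay on the intron side, among them peaks of TFR2 (20 exon and 41 intron bases, log2 fold 4.90), CCNL1, DDX39A and GIGYF1. The counterpart at the 5’ splice site is missing from the class by the order of the list. None of the 180 CDS peaks listed a 5’-SS, and in a GIGYF1 peak the 5’-SS came first with 1 base against 65 of CDS. That CDS peaks reached across only the 3’ splice site was thus fixed by this order. Just outside the rule, 33 peaks listed a 5’-SS first and CDS later, and in 20 of them CDS held most of the bases. The 43 peaks with a 5’-SS first and any exonic region later had a median log2 fold of 3.56, and the 9 such peaks with a proximal intron first had 3.37.

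The 5’-UTR peaks with the highest fold were in MGEA5, ACTB, HNRNPU, NCKAP1 and ACTG1. MGEA5 encodes O-GlcNAcase, which removes the sugar that OGT attaches to proteins. Its peak at chr10:103577866-103577908 (minus strand) had a log2 fold of 6.16 over both, 5.23 in replicate 1 and 37 reads, and was the highest of all exonic peaks over both replicates. It belonged to a run of 5 peaks, 3 in the 5’-UTR and 2 in CDS, and the run ended 468 bases from the 5’ end of the cluster span. From the 5’ end, the folds over both were 4.06, 6.16 and 4.74 in the 5’-UTR and 3.56 and 3.19 in CDS, where the first of the CDS peaks still listed 38 bases of 5’-UTR. OGT itself had 2 CDS peaks with low folds of 3.04 and 3.09 over both and 2.59 and 2.76 in replicate 1, but with 63 and 133 reads. The enzyme pair thus differed in where and how the peaks stood: high over the input at the 5’ end of MGEA5, and read-rich but low over the input farther along OGT, which also carried 5 intron peaks.

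ACTB and ACTG1, the genes of the 2 cytoplasmic actins, both had 2 peaks in the 5’-UTR. In ACTB, the peak at chr7:5569550-5569604 (minus strand) had a log2 fold of 5.52 over both, 6.63 in replicate 1 and 32 reads, and the next at chr7:5569441-5569516 had 4.01, 5.39 and 45 reads. A group of 4 proximal intron peaks of ACTB, with folds from 4.83 to 7.17, lay upstream of both, and the nearest ended 3 bases before the first. The 2 peaks summed to 131 bases while the canonical 5’-UTR of ACTB has 84. In ACTG1, the folds over both were 4.77 and 4.53, those in replicate 1 were 6.31 and 6.28, and the clusters held 18 and 16 reads, with no intron peak in the gene. The 3 highest replicate 1 folds of all exonic peaks were thus 1 of ACTB and 2 of ACTG1. Such an arrangement, with an intron or splice site peak upstream of the 5’-UTR peak, was found for 10 of 70 peaks, in ACTB, ASNS, EIF5, H3F3B, HNRNPU, ISYNA1, SLC43A3 and TCP1. The HNRNPU peak, in the gene of a nuclear scaffold RNA-binding protein, covered only 15 bases and had 5.47, 5.76 and 20 reads, and NCKAP1, a WAVE complex subunit, had 4.79, 5.73 and 32 reads.

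The 3’-UTR peaks with the highest fold were in SUGP2, TOP3B, AMDHD2 and NARF. SUGP2 encodes a protein with SURP and G-patch domains, and its peak at chr19:19101928-19101963 (minus strand) had 5.10 over both, 4.28 in replicate 1 and 48 reads, with 4 of its 36 bases in a 3’ splice site region. The TOP3B peak at chr22:22312176-22312197 (minus strand) had 4.72, 5.28 and 12 reads. AMDHD2, an enzyme of amino sugar metabolism, had 2 peaks of equal fold over both, 4.66, with 4.36 and 4.58 in replicate 1 and 21 and 17 reads. NARF had 4.50, 4.65 and 22 reads. Apart from SUGP2 these clusters held 12 to 22 reads, whereas the read-rich 3’-UTR peaks were those of LENG8.

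LENG8 had the most exonic peaks, 9, of which 7 were in the 3’-UTR and 2 in CDS, and no peak outside exons. The 3’-UTR peaks lay within 787 bases, with folds over both from 3.34 to 4.22, replicate 1 folds from 3.23 to 3.99 and 69 to 241 reads. The highest of them, at chr19:54972192-54972242 (plus strand), had 4.22 over both, 3.99 in replicate 1 and 241 reads, the most of any exonic peak. A CDS peak lay downstream of all 7, at chr19:54972509-54972529, with 4.89, 4.77 and 42 reads, so the listed regions place coding sequence downstream of 3’-UTR sequence in this gene. The clusters at its exonic peaks held 40.1% of the 2596 replicate 2 reads of the gene. TOP3B, a topoisomerase that acts on DNA and RNA, followed with 7 exonic peaks. Its 4 CDS peaks had folds from 3.04 to 3.76 and 16 to 36 reads, and its 3 3’-UTR peaks 3.15, 3.76 and 4.72 with 18, 15 and 12 reads, so that the fold was highest where the reads were fewest.

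**Figure D5:**
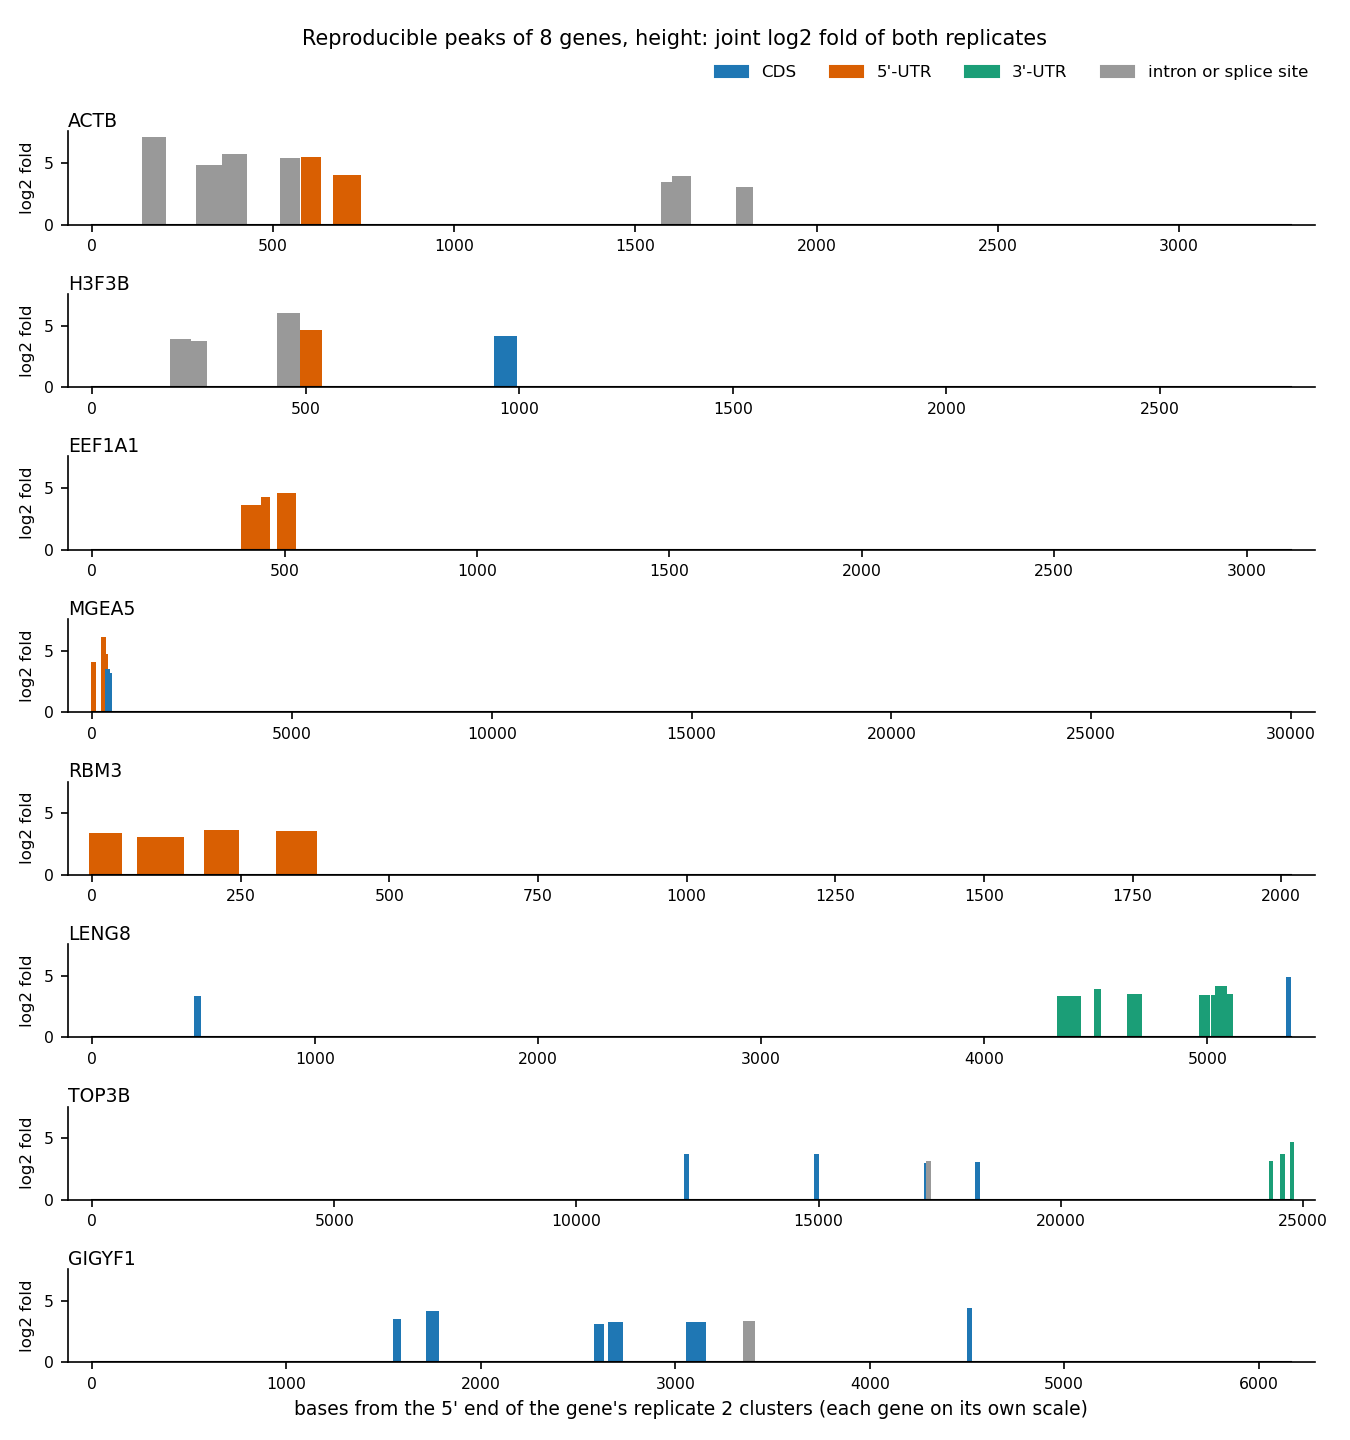
Reproducible peaks of 8 genes by distance in bases from the 5’ end of the gene's replicate 2 clusters, each gene on its own scale, with bar height giving the joint log2 fold of both replicates over the input and color giving the region. ACTB and H3F3B 5’-UTR peaks follow intron or splice site peaks, MGEA5 and RBM3 peaks crowd at the 5’ end, and the 7 LENG8 3’-UTR peaks lie before a last CDS peak.

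Most of the 169 genes had a single exonic peak (110 genes, 65.1%, 57.4 to 72.2), and 13 had 4 or more. GIGYF1, whose product represses translation, had 6, all in CDS, with folds from 3.14 to 4.42 and 20 to 76 reads, and their clusters held 40.0% of its 565 reads. Cyclin L1, encoded by CCNL1, had 5 CDS peaks with folds from 3.18 to 4.88, and its paralog CCNL2 had 2 CDS peaks and 1 3’-UTR peak between 3.24 and 3.52. MACF1, a cytoskeletal linker, had 5 CDS peaks with folds from 4.36 to 4.88 but only 13 to 17 reads each, whereas SRRM2, a nuclear speckle scaffold, had 5 with folds from 3.08 to 3.94 and 23 to 59 reads. RBM3, a cold-induced RNA-binding protein, had 4 peaks, all in the 5’-UTR, with folds from 3.09 to 3.69 and 26 to 60 reads. The RBM3 clusters held 66.7% of the 219 reads of the gene, and the peaks covered 261 bases against 103 in the canonical 5’-UTR. The other genes with 4 were HP1BP3, a heterochromatin protein gene (37 to 88 reads, folds from 3.07 to 3.24), STRIP2, HDAC6, CREBZF and MAN2A2, and MGEA5 had 5.

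Genes with peaks in more than 1 exonic class were few. CDS and 5’-UTR peaks occurred together in ANAPC5, H3F3B, MAN2A2, MGEA5, NKTR, SFSWAP and TYK2, CDS and 3’-UTR peaks in CCNL2, CREBZF, HDAC6, LENG8 and TOP3B, and 5’-UTR and 3’-UTR peaks in 0 genes. Of the 169 genes, 66 also carried a peak outside exons (39.1%, 31.7 to 46.8). The share was 45.5% among genes with a CDS peak (35.9 to 55.2), 32.7% among those with a 5’-UTR peak (20.3 to 47.1) and 31.6% among those with a 3’-UTR peak (12.6 to 56.6), with intervals that overlapped. Of the paralog pairs, SAFB and SAFB2, nuclear scaffold attachment factors, each had 1 CDS peak, with folds of 3.39 and 3.25 and 15 and 16 reads. The histone H3.3 genes differed in class: H3F3B had a 5’-UTR peak of 4.63 and a CDS peak of 4.17 with 34 and 65 reads, and H3F3A a 3’-UTR peak of 3.55 with 13 reads.

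Neighboring peaks were common in all 3 classes, with shares whose intervals overlapped. Another peak lay within 200 bases of 16 of 31 3’-UTR peaks (51.6%, 33.1 to 69.8), 32 of 70 5’-UTR peaks (45.7%, 33.7 to 58.1) and 49 of 180 CDS peaks (27.2%, 20.9 to 34.3). The share was 38.2% over all 866 peaks and 45.2% at proximal intron peaks, both above the CDS interval and inside those of the UTR classes. Without LENG8, the 3’-UTR share was 9 of 24 (37.5%, 18.8 to 59.4). The neighbor was a peak of the same class for all 16 in the 3’-UTR, for 24 of 32 in the 5’-UTR and for 33 of 49 in CDS, where 11 of the others were 5’-SS peaks. The cluster at a 5’-UTR peak held a median of 8.46% of its gene's replicate 2 reads (6.07 to 10.5). The cluster at a CDS peak held 4.96% (4.60 to 5.63) and that at a 3’-UTR peak 6.39% (4.15 to 8.46). Peaks that share a cluster each count all its reads. When the log2 fold had to reach 4, the order of 5’-UTR and CDS was reversed, at 4.74% and 5.66%, with 9.28% in the 3’-UTR. The genes differed in size too, with a median of 472 reads per gene at CDS peaks and 285.5 at 5’-UTR peaks. The highest shares belonged to MYLIP, a ubiquitin ligase gene (48.9% of 90 reads in its 5’-UTR cluster), and UBE2H, a ubiquitin-conjugating enzyme gene (36.2% of 69 reads), among the 5’-UTR peaks, and to ELL2, an elongation factor gene (45.5% of 22 reads), among CDS peaks, and these 3 were picked for their values. The peak was in the most read-rich cluster of its gene for 28.6% of 5’-UTR peaks, 23.9% of CDS peaks and 12.9% of 3’-UTR peaks.

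The exonic peaks were grouped by gene function with lists written with the bound genes known, so that the number of bound genes in them is no finding and only the class and the values are described. Splicing and RNA processing genes were the largest group, with 65 peaks in 33 genes, 41 in CDS, 10 in the 5’-UTR and 14 in the 3’-UTR. Of these 14, 7 were the run in LENG8, so the 3’-UTR number rests largely on 1 gene. The median log2 fold of the group was 3.53 against 3.68 for all exonic peaks. Among them, HNRNPU had 5.47, SUGP2 5.10, LENG8 4.89 and CCNL1 4.88. The 3’-UTR peaks of SF3B1 (3.81) and of HNRNPD (3.65 and 3.67) and the 5’-UTR peak of U2AF2 (3.65) lay near the median of their classes. Translation genes held 14 peaks in 7 genes, 8 of them in the 5’-UTR and 6, all of GIGYF1, in CDS, with a median of 4.04. The 5’-UTR peak of the ribosomal protein gene RPS3A had 4.70, 5.36 in replicate 1 and 11 reads, the highest of 3 in EEF1A1, the elongation factor gene, had 4.64, 5.13 and 34 reads, and that of the initiation factor gene EIF5 had 4.52, 5.23 and 47 reads. In RPS3A, RPS6, RPL6, EIF4A1 and EEF1A1 the peaks covered more bases than the canonical 5’-UTR, for example 79 against 19 in RPL6 and 126 against 63 in EEF1A1.

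DNA repair genes had 19 peaks in 9 genes, 16 in CDS and 3 in the 3’-UTR, with a median of 3.74. The topoisomerase gene TOP3B, counted in this list, supplied 7 of the 19, including all 3 in the 3’-UTR. TONSL had 4.92, RAD54L, a recombination motor, 4.59, and POLE, the catalytic subunit of a replicative polymerase, 4.48, while the replicate 1 fold at the POLE peak was 3.13. The Fanconi anemia genes FANCI, FANCD2 and FANCA had peaks between 3.27 and 4.02. Ubiquitin genes had 22 peaks in 12 genes, 16 in CDS, with a median of 3.89. The ligase genes UBR4 and HERC1 had 4.62 and 4.52 and the protease gene USP34 had 4.64, each on 11 to 17 reads. Mitosis and cytoskeleton genes had 21 peaks in 14 genes with a median of 4.05, led by ACTB at 5.52, MACF1 at 4.88 and ACTG1 at 4.77. Chromatin genes had 21 peaks in 14 genes with a median of 3.56, led by GSE1 at 5.0, the demethylase gene KDM3B at 4.69 and H3F3B at 4.63.

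Genes of the integrated stress response had 9 peaks in 4 genes, with the lowest list median, 3.35. Of these peaks, 4 were in CREBZF, with folds from 3.27 to 3.96. The 3 peaks of ATF4, the transcription factor of this response, whose 5’-UTR carries the upstream reading frames that control its translation, all lay in the 5’-UTR within 221 bases. Their folds over both were 3.26, 4.36 and 3.40, with 27, 18 and 12 reads, and those in replicate 1 were 3.84, 4.67 and 4.67. The last 2 had the same replicate 1 fold and −log10 p. Its target ASNS, asparagine synthetase, had a 5’-UTR peak of 3.22 with the lowest replicate 1 fold of all exonic peaks, 2.00. PPP1R15A, a phosphatase subunit, had a CDS peak of 3.13, whose cluster held 30.7% of the 75 reads of the gene. Of the 9 erythroid and hematopoietic genes, 4 carried an exonic peak, TFR2 (4.90), TYK2 (4.80 and 3.26 in CDS and 4.59 in the 5’-UTR), KEL (3.93) and CD46 (3.08). HBG1, HBG2, GATA1 and KLF1 had clusters in replicate 2 but no exonic peak.

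Some values are shared or depend on the first listed region. Of the 281 peaks, 168 had the same replicate 1 fold and −log10 p as another exonic peak, through sharing a cluster or through few reads, so there were 137 distinct replicate 1 folds. A total of 5 peaks listed 2 genes. Reads of ACTB, ACTG1, EEF1A1, the histone H3.3 genes and the ribosomal protein genes can also align to near-identical copies elsewhere in the genome, so their values are less certain. Outside the rule, 53 peaks listed an exonic region later, 33 of them with most bases in exons, and 16 peaks within it had most of their bases in another region than the first.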

How the data were processed

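RBM17 eCLIP peaks from 2 replicates and 1 size-matched input in K562 cells were analysed. Reads were trimmed with cutadapt and aligned with STAR per the labels, and processed with a published eCLIP pipeline. The build is not given in the sources used here, and the span of positions on chromosome 1 fits hg19. Each replicate 1 cluster has, as the authors deposited it, a log2 fold over the input with its −log10 p. Replicate 2 clusters carry the deposited p-value of the peak caller, at most 0.05 and not relative to the input, and a read count in the cluster name. Each reproducible peak has 1 joint log2 fold and 1 joint −log10 p. The heading of a supplementary list names these columns differently, and the values of replicate 1 decided their meaning.

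Regions and genes of peaks came from the study's supplementary list, and all 866 peaks were joined. Clusters overlapped a peak with at least 1 bp on the same strand, and the largest value was used where several did. Lengths, exons and split UTRs came from canonical and alternative transcripts of GENCODE 44 (hg38), without coordinates. Peak sequences were not used here. Python 3.11.15 with pandas 2.3.3, numpy 2.4.6, scipy 1.17.1 and matplotlib 3.10.9 was used, and the overlaps and intervals were tested on simulated data. Shares have exact Clopper-Pearson and medians exact order-statistic 95% intervals.

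Replicates are numbered 1 and 2 as in the sample descriptions, while their titles number them otherwise. Members, gene lists and comparisons were chosen with earlier results of these data known. Genes were named when they had 4 or more exonic peaks, one of the 5 largest log2 folds of a class, peaks in several classes, a place in a gene list (those with the largest folds), or a paralog with a peak. Alternatives changed the region rule, the thresholds, the overlap and the peaks per gene. A few genes of the lists are not reported here.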

Additional observations from a re-analysis of the deposited data

How the results depend on the processing

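Of 228 recomputed values, 190 stayed within the main interval of their median or share or, for a number of peaks, within 1.5 times the main number. These include all 30 with the region holding most bases, where 5’-UTR peaks numbered 90, all 30 with abutting peaks merged and all 20 without LENG8, an alternative added after seeing the data that left 24 3’-UTR peaks. A log2 fold of at least 4 moved the most values, 19. With it, CDS, 5’-UTR and 3’-UTR peaks numbered 57, 29 and 9, their median log2 folds were 4.48, 4.48 and 4.50 and their replicate 1 medians 4.44, 5.10 and 4.44. The median of replicate 2 reads in CDS was then 18. The share passing in replicate 1 was 100% in CDS and the 3’-UTR, genes with a single peak made up 84.8% and 87.5% in these 2 classes, and genes with a peak elsewhere 34.8% and 0%. The median share of a gene's reads was 5.66% in CDS, 4.74% in the 5’-UTR and 9.28% in the 3’-UTR, so the 5’-UTR went from the highest class to the lowest. With a −log10 p of at least 5, the classes numbered 99, 41 and 18, the read medians were 28 in CDS, 32 in the 5’-UTR and 41 in the 3’-UTR, and the CDS position was 0.43. With 1 peak per gene and class, the one with the largest fold, CDS numbered 111 and the 3’-UTR 19, and in CDS the median log2 fold was 3.81, the replicate 1 median 3.8, the share with a fold of at least 4 41.4% and the share of reads 5.66%. This selection raises folds by its construction. Among clusters of the same interval, all 3 classes passed in replicate 1 at 100%, as did the 3’-UTR with clusters covering 50% of the peak. Of peaks with 1 listed region, 35.3% of CDS genes had a peak elsewhere. The share of exonic peaks overlapping clusters of both replicates was 90.4% when 50% had to be covered and 0% on the opposite strand, and leaving out either replicate gave 100% to 100%. No paired analysis was possible because no result comes from a test and the replicates hold different measures. The cause of these changes was not tested beyond the construction named. The reads of clusters at exonic peaks, a median of 22, and the single fold for both replicates limit the comparisons.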
